A study of Mus musculus with 4 samples.

Results

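The genes described here are the cyclins, their inhibitors and the genes of DNA replication and mitosis: 42 named genes, all of them present among the 15140 genes found in the count tables of all 3 stages. They were chosen from their known roles in the cell cycle, with earlier results of these data known. The 42 genes were read in 4 groups, with 5 cyclins of the G1 phase, 2 inhibitors of the cyclin-dependent kinases, 14 genes of DNA replication and 21 genes of G2 and mitosis.

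The study followed the cells of the early mouse embryo at 3 stages of gastrulation by single-cell RNA sequencing, to ask whether the progenitors of the heart chambers and outflow tract differ in the genes they express. The stages are the mid to late streak stage (MS-LS, embryonic day 6 plus 21 hours), the stage without or with an early allantoic bud (OB-EB, day 7 plus 3 hours) and the early head fold stage (EHF, day 7 plus 14 hours). All embryos had the same genotype, TnEGP-CreERT2/+; R26Rtdtomato/R26Rtdtomato, which places a tamoxifen-inducible Cre under the T gene beside a tdTomato reporter. All came from females given tamoxifen by oral gavage at 0.08 mg per body weight, at day 6 plus 5 hours for MS-LS, day 6 plus 21 hours for OB-EB and day 7 plus 7 hours for EHF. No stage had untreated or wild-type embryos, so the stage, the library and the time of tamoxifen cannot be told apart.

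Each stage gives 1 library of pooled embryos, and cells are not replicates. No test between stages was therefore possible, and every interval given below is a 95% interval that covers counting error only. The MS-LS library holds 3635 cells and 17966956 UMIs, the tags that count single RNA molecules. OB-EB holds 3994 cells and 12181436 UMIs, and EHF holds 3494 cells and 20376539 UMIs. The median cell has 4251 UMIs at MS-LS, 2620.5 at OB-EB and 5584 at EHF. Cells called female made up 51.7% of cells with a call at MS-LS, 63.2% at OB-EB and 85.7% at EHF. With no UMI for a call in 1874, 2154 and 1268 cells, the mix of sexes of the embryos is not known from these shares. The EHF stage has a pair of tables that hold the same count in every place and differ in 21 gene names, so they count as 1 library. MS-LS shares 18 cell barcodes with OB-EB and 12 with EHF, and OB-EB shares 14 with EHF.

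Cells leave G1 when D-type cyclins, bound to Cdk4 or Cdk6, phosphorylate the retinoblastoma protein and so release E2F transcription factors. E-type cyclins with Cdk2 then start replication, and cyclins A and B with Cdk1 lead into mitosis. Epiblast cells of the gastrula divide fast, with short gap phases.

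Levels are counts per 1000000 UMIs (CPM), over all cells of a library or over the cells of a class. The assay tags each molecule once at its 3′ end, so counts were not divided by gene length. Levels of different genes are set side by side as molecules counted. How well each gene is captured was not measured, so an order between genes is one of counts. A gene enters a ratio between stages with at least 100 UMIs over both libraries, and is called higher or lower past a fold of 1.5. All 42 members enter each of the 3 comparisons.

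From MS-LS to OB-EB few of the members moved. The called members rose in 3 cases and fell in 2. Ccnd2, Ccne2 and Cdkn1b were higher, 3 of 42, where 11.3% of the 9706 genes that enter were higher. Mcm6 and Mki67 were lower, 2 of 42, where 13.6% of those genes were lower. All other members stayed inside the fold of 1.5. The median log2 ratio of the members was -0.20, beside -0.088 for all genes that enter.

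From OB-EB to EHF many more moved, most of them upward, and so did the genes as a whole. At EHF 20 of 42 members were higher, where 36.7% of the 10453 genes that enter were higher. They were Ccnd3, Ccne1 and Cdkn1a, the replication genes Mcm3, Mcm5, Mcm6, Rrm1, Gins2, Cdc6 and Cdc45, and the mitosis genes Ccna2, Ccnb2, Cdk1, Mki67, Cenpe, Aurkb, Plk1, Ube2c, Hmmr and Kif23. Ccne2, Cdkn1b and Pcna were lower, 3 of 42, where 11% were lower. The other members stayed inside the fold. The members' median log2 ratio was 0.58, beside 0.37 for all genes, a shift upward that the genes at large share.

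Across the whole interval, from MS-LS to EHF, 9 of 42 members were higher, where 28.3% of the 10778 genes that enter were higher. They were Ccnd1, Ccnd2, Ccnd3, Cdkn1a, Mcm3, Mcm5, Cenpe, Hmmr and Kif23. Pcna and Cdkn1b were lower, 2 of 42, where 8.84% of genes were lower. The members' median was 0.34, beside 0.26 for all genes.

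**Figure D1:**
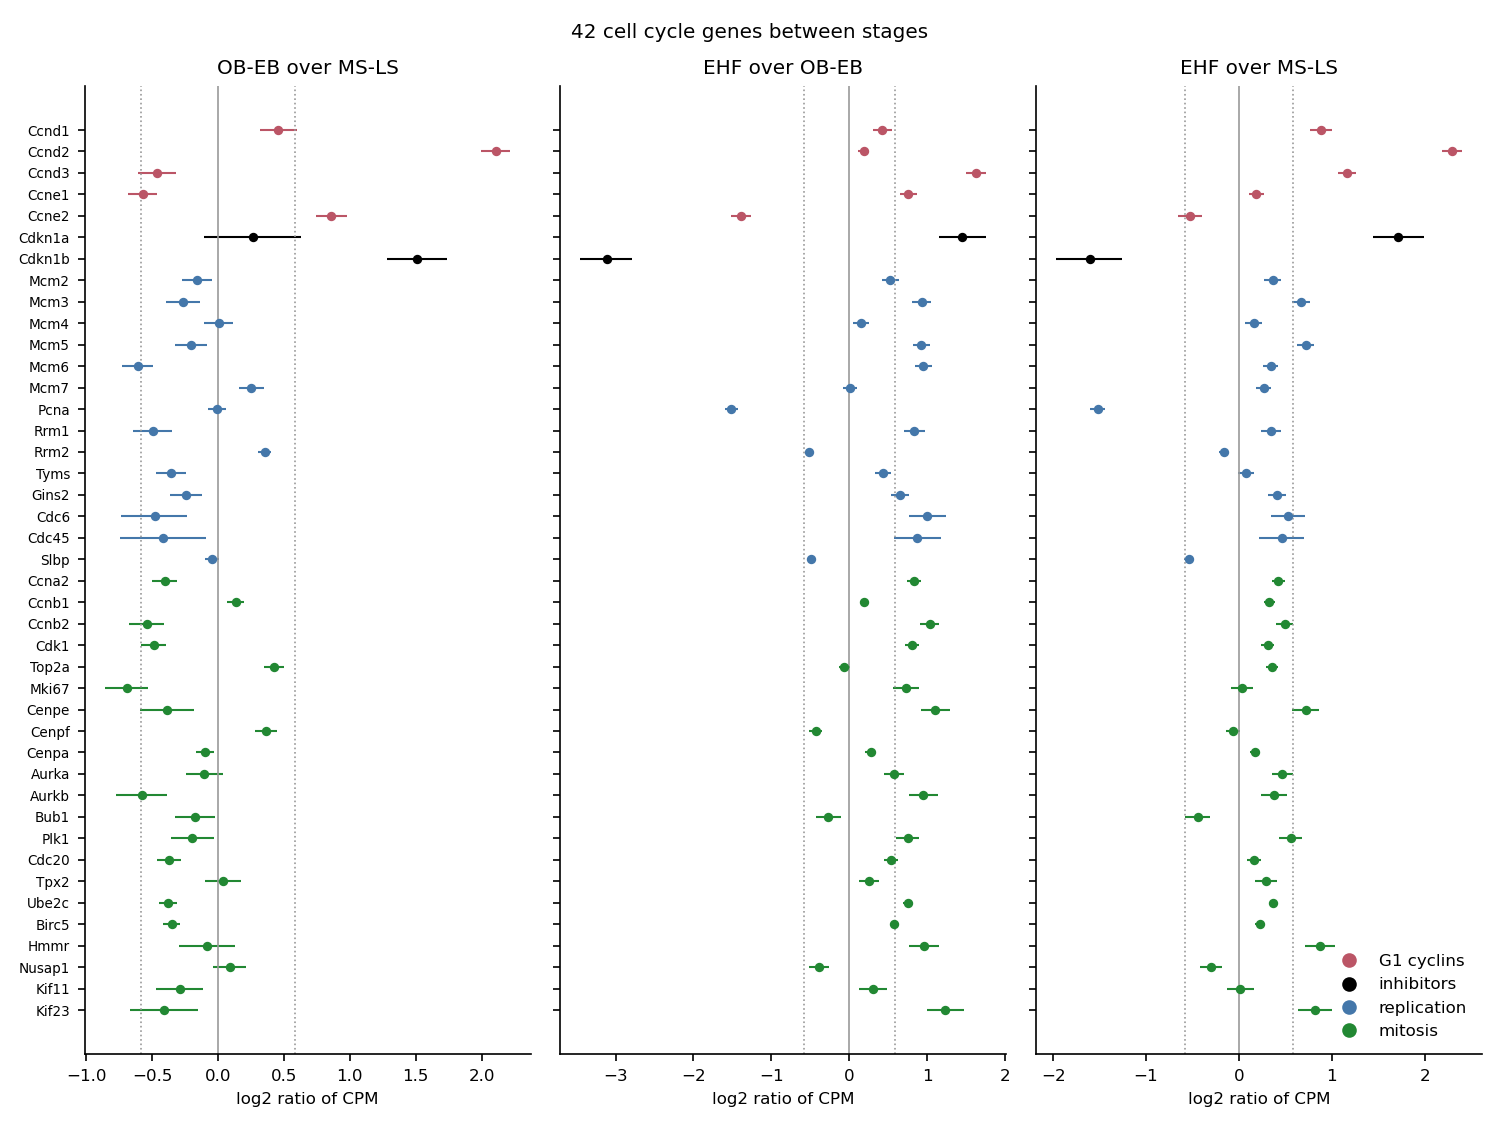
Log2 ratio of CPM between stages (x axis) for each of the 42 members (y axis, by group), in the 3 comparisons, with bars for 95% counting intervals and dotted lines at a fold of 1.5. Ccnd2 and Cdkn1b lie farthest to the right from MS-LS to OB-EB, and Cdkn1b and Pcna farthest to the left from OB-EB to EHF.

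To follow genes within kinds of cells, each library was clustered with the cell cycle genes kept out of the variable genes, and clusters were named from marker genes. The names carry "-like" because they rest on markers alone. Classes of at least 50 cells took in 2711 MS-LS cells in 8 classes, 2159 OB-EB cells in 7 and 2409 EHF cells in 13. The unnamed cells, 924 at MS-LS, 1835 at OB-EB and 951 at EHF, count in whole libraries alone, as do the EHF classes of axial mesendoderm-like (44), paraxial mesoderm-like (43) and rostral neuroectoderm-like cells (47). In all 3 libraries 5 classes had at least 50 cells: definitive endoderm-like (DE-like), epiblast-like, extra-embryonic ectoderm-like (ExE-like), lateral plate and extra-embryonic mesoderm-like (LPM-like) and visceral endoderm-like (VE-like). The EHF cluster named epiblast-like also had the neural genes Sox9 and Irx3 among its leading genes. Far fewer members were called when the fold of 1.5 was required the same way in each of the 5 shared classes, with 5 CPM added to each level. This count was chosen after the data were seen. Ccnd2 was the single member higher from MS-LS to OB-EB (1.89% of genes) and from MS-LS to EHF (2.96%), and Ccnd3 from OB-EB to EHF (4.74%). The Ccnd2 calls include ExE-like and VE-like cells, where it has few UMIs. No member was lower from MS-LS to OB-EB, where 1.12% of genes were. Pcna, Ccne2 and Cdkn1b were lower from OB-EB to EHF (3.37%), and Pcna and Cdkn1b from MS-LS to EHF (2.3%).

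The D cyclins changed their order between stages. At MS-LS all 3 stood within a narrow band, with Ccnd3 the highest. Ccnd2 led at OB-EB and at EHF, and Ccnd3 came back at EHF. Ccnd1, the partner of Cdk4 and Cdk6 encoded on chromosome 7 (chr7:144929931-144939925, minus strand, GRCm38), rose at each step. Its level was 48.8 CPM (45.6 to 52.2) at MS-LS, 67.0 (62.5 to 71.7) at OB-EB and 90.1 (86.03 to 94.3) at EHF. The log2 ratios were 0.46 and 0.43, neither past the fold of 1.5, and 0.88 across both steps.

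Ccnd2, on chromosome 6 (chr6:127125162-127152193, minus strand), made the largest move of the G1 cyclins. It stood at 49.4 CPM (46.2 to 52.7) at MS-LS, 213 (205 to 221) at OB-EB and 242 (235 to 249) at EHF. That is 4.31-fold from MS-LS to OB-EB, a log2 ratio of 2.11 (1.997 to 2.22). The second step was small, at 0.19 (0.12 to 0.26), and was -0.00022 when the classes named in both libraries were weighted equally. For whole libraries most of the rise thus lay in the first step.

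Ccnd3, on chromosome 17 (chr17:47505051-47599691, plus strand), went down and then up. It stood at 70.0 CPM at MS-LS, 50.7 at OB-EB and 157 at EHF. Its log2 ratio was -0.46 (-0.60 to -0.32) for the first step and 1.63 (1.504 to 1.76) for the second. With classes weighted equally these were -0.16 and 1.35, and ExE-like cells gave 539 of the 1257 Ccnd3 UMIs of MS-LS. Of all D cyclin UMIs, Ccnd3 made up 41.6% at MS-LS, 15.4% at OB-EB and 32.1% at EHF. Ccnd2 made up 29.4%, 64.4% and 49.5%, and Ccnd1 29.0%, 20.3% and 18.4%. The sum of the D cyclins was 168 CPM at MS-LS, 330.4 at OB-EB and 489 at EHF.

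Classes differed in which D cyclin they used, and the ExE-like and VE-like classes stood apart. Axial mesendoderm-like cells also read Ccnd3 highest, with 53.8% at MS-LS and 42.9% at OB-EB. That rests on 13 and 14 D cyclin UMIs, with intervals that overlap those of Ccnd2. In ExE-like cells Ccnd3 gave 93.3% of D cyclin UMIs at MS-LS, 82.1% at OB-EB and 94.2% at EHF. VE-like cells were also led by Ccnd3, with 85.1%, 62.5% and 72.8%. In ExE-like and VE-like cells Ccnd1 and Ccnd2 were low at every stage, and the change of order seen in whole libraries was not found. Ccnd2 read 4.57 CPM (14 UMIs) in ExE-like cells at MS-LS, 20.4 at OB-EB and 10.4 at EHF. The same gene read 2.65 CPM (9 UMIs), 13.3 and 20.6 in VE-like cells.

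Levels this low have to be read beside those of free RNA. Apoa1 and Ttr, genes of visceral endoderm, read in ExE-like and epiblast-like cells at 3.53% to 6.85% of their library level at MS-LS, 8.28% to 14.7% at OB-EB and 5.13% to 6.72% at EHF. Elf5, a gene of extra-embryonic ectoderm, read in VE-like cells at 2.34%, 0% and 2.70%. Rhox5, another marker of that tissue, read in VE-like cells above its library level, at 141%, 355% and 247%. It gives no measure of free RNA in those cells. Ccnd2 in ExE-like cells read at 9.25%, 9.61% and 4.28% of its library level at MS-LS, OB-EB and EHF, and in VE-like cells at 5.38%, 6.24% and 8.50%. Mesp1, a gene of early mesoderm, read at 10.9%, 12.04% and 5.07% in ExE-like and at 7.01%, 9.29% and 11.8% in VE-like cells, on 4 to 21 UMIs. T, a gene of the streak, read higher in ExE-like cells, at 46.9%, 31.2% and 13.2%. Pou3f1, a gene of the epiblast, read at 4.93%, 6.31% and 11.4% in VE-like cells, on 9 to 11 UMIs. In ExE-like cells Pou3f1 read above its library level, at 241%, 315% and 341%, so it gives no measure of free RNA there. Dnmt3b, another marker of the epiblast, read in ExE-like cells at 71.2%, 86.2% and 123%, and gives none either. Leaving out the 5% of cells with the highest doublet scores took Ccnd2 from 4.57 to 1.46 CPM in ExE-like cells and from 2.65 to 0.924 in VE-like cells at MS-LS. VE-like cells called male read 4.73 CPM at MS-LS, and female 0.996. Without the highest doublet scores Ccnd2 in VE-like cells went from 13.3 to 7.80 CPM at OB-EB and from 20.6 to 12.8 at EHF. At OB-EB VE-like cells called female read 7.82 and male 20.2. Whether free RNA or doublets give these counts was not tested.

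In epiblast-like cells the order moved toward Ccnd2, which rose from 18.8 CPM at MS-LS to 120.3 at OB-EB and 158 at EHF. Ccnd1 in those cells was 76.5, 92.3 and 76.8 CPM, and Ccnd3 49.96, 40.1 and 76.8. Ccnd2 was thus the lowest of the D cyclins in these cells at MS-LS and the highest at both later stages. Ccnd1 gave 52.6% of the D cyclin UMIs of epiblast-like cells at MS-LS, and Ccnd2 gave 47.6% at OB-EB and 50.7% at EHF. Among cells called male, Ccnd2 in MS-LS epiblast-like cells was 32.9 CPM. At lower clustering resolution the OB-EB level was 180.3 CPM and the EHF level 166, so the second rise is not found there. The OB-EB class then took in a cluster of 517 cells with the streak genes T and Fst among its leading genes.

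LPM-like cells held the highest Ccnd2 of any class at MS-LS and OB-EB, 219 and 713 CPM, and fell to 388 at EHF. Their Ccnd3 ran from 77.5 to 55.2 CPM and then up to 290.0 at EHF. Ccnd2 led in them at each stage, with 57.7%, 80.5% and 45.3% of D cyclin UMIs. Their Ccnd1 rose at each step, from 82.7 to 117 and 179 CPM. Among cells called female the first rise is not found, with the OB-EB level below that of MS-LS. Their summed D cyclins were 379, 885 and 857 CPM, above every other shared class at each stage. The MS-LS cluster of this class also had the endothelial markers Kdr and Etv2 among its leading genes. Endothelium-like, blood progenitor-like and erythroid-like cells were named as classes at EHF alone. Whether the make-up of the LPM-like class changed between stages was not tested.

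In DE-like cells Ccnd2 went from 36.3 to 98.6 and 389 CPM. The MS-LS value depends on the clusters: at lower resolution, where the class took in 402 cells in place of 164, Ccnd2 was 19.3 CPM, Ccnd1 29.2 in place of 49.2 and Ccnd3 30.9 in place of 18.7. With cycle genes allowed into the clustering they were 18.3, 28.8 and 31.6 CPM. Among cells called male Ccnd2 was 59.6 CPM at MS-LS and 172 at OB-EB, and Ccnd3 was 9.41 at MS-LS.

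Within classes Ccnd2 read higher at OB-EB than at MS-LS in each shared class. From MS-LS to OB-EB the log2 ratio was 1.44 in DE-like, 2.68 in epiblast-like, 2.16 in ExE-like, 1.71 in LPM-like and 2.32 in VE-like cells, and each interval excludes 0. The ExE-like and VE-like ratios rest on 14 and 19 UMIs and on 9 and 16 UMIs, at the low shares of the library level given above, and cannot be told apart from free RNA here. Among cells called female 3 of the 5 classes were higher. From OB-EB to EHF the classes parted. Ccnd2 rose by 1.98 in DE-like and 0.39 in epiblast-like cells, and fell by 0.98 in ExE-like and by 0.88 in LPM-like cells. In place of 2 classes, 1 was higher at lower resolution and 1 among cells called male. The ExE-like fall, on 19 and 36 UMIs, has the same limit, and without the highest doublet scores its OB-EB level was 11.8 CPM in place of 20.4 and 1 class in place of 2 was lower, as among male cells. Ccnd3 rose in that step in all 5, by 0.74 in VE-like to 2.39 in LPM-like cells, but beyond the interval in 3 among female and 2 among male cells. From MS-LS to OB-EB no class moved for Ccnd3 beyond its counting interval. Ccnd1 rose beyond its interval in 2 of 5 classes at each step and fell beyond it in none. From OB-EB to EHF its median log2 ratio over the 5 classes was -0.27, and the lowest was -1.12. Among female and among male cells no class rose beyond its interval in the first step, and 1 and 0 did in the second. Without the highest doublet scores, at lower resolution or with cycle genes allowed into the clustering 1 did in the second.

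Classes found in fewer libraries fill in the picture. Streak-like cells had Ccnd2 at 91.3 CPM at MS-LS and 326 at OB-EB, a log2 ratio of 1.84, with Ccnd1 at 64.0 and 93.9 and Ccnd3 at 47.2 and 42.8. In the cells that the study itself listed as primitive streak, 318 at MS-LS and 252 at OB-EB, Ccnd2 went from 90.5 to 278 CPM (1.62, 1.33 to 1.91). Ccnd1 in those listed cells was 64.3 and 65.0 CPM, and Ccnd3 fell from 51.9 to 32.5 (-0.68, -1.38 to -0.027). The rise of Ccnd2 was found with either set of streak cells, that of Ccnd1 with the clusters alone, and the fall of Ccnd3 with the listed cells alone. The sets are not independent, since 187 of the 318 and 106 of the 252 listed cells were in the streak-like classes. The 36 cells listed as anterior primitive streak at MS-LS read 18.2 CPM for Ccnd2, on 3 UMIs. Nascent mesoderm-like cells at MS-LS read 125 CPM for Ccnd2 and 93.9 for Ccnd1.

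At EHF the blood lineage combined high Ccnd2 with almost no Ccnd1. Erythroid-like cells had 608 CPM of Ccnd2, the highest value of 13 classes, with an interval that overlaps that of blood progenitor-like cells, 291 of Ccnd3 and 7.33 of Ccnd1 (4 UMIs). Blood progenitor-like cells had 555 CPM of Ccnd2, 339 of Ccnd3 and 15.8 of Ccnd1. In the tissues of the embryo proper Ccnd1 was present as well. Caudal epiblast-like cells had 478 CPM of Ccnd2 and 174 of Ccnd1. Cardiac-like cells had 365 CPM of Ccnd2, 145 of Ccnd3 and 84.9 of Ccnd1. Presomitic mesoderm-like cells stood at 309 CPM of Ccnd2, and anterior mesoderm-like cells at 173. Ccnd2 did not lead in every mesodermal class. Endothelium-like cells read 235 CPM of Ccnd3 and 195 of Ccnd2, with intervals that overlap. No Ccnd1 UMI was found in the 64 parietal endoderm-like cells, which sets an upper limit of 20.8 CPM.

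**Figure D2:**
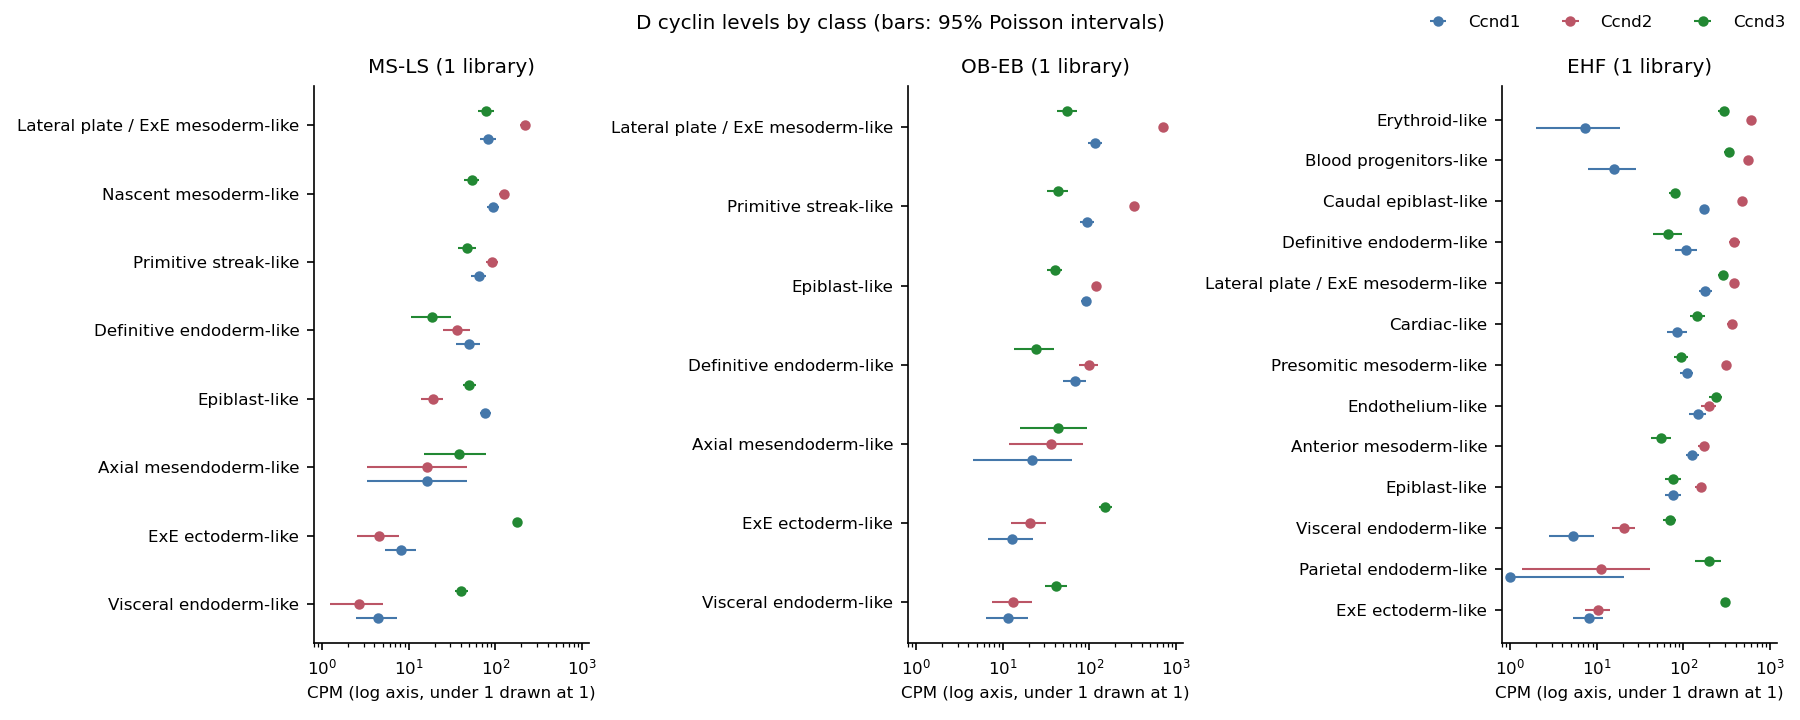
CPM of Ccnd1, Ccnd2 and Ccnd3 in each class of at least 50 cells of the 3 libraries, with bars for 95% Poisson intervals of the counts. ExE-like and VE-like cells are led by Ccnd3 at each stage, and Ccnd2 leads in most embryonic classes from OB-EB on.

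The E cyclins, which start replication with Cdk2, moved in opposite ways. Ccne1 was 116 CPM at MS-LS, 78.2 at OB-EB and 132 at EHF, with log2 ratios of -0.57 and 0.76. Ccne2 was 58.7, 106 and 40.7 CPM, with 0.86 and -1.39. In whole libraries Ccne2 exceeded Ccne1 at OB-EB alone. Classes differed, with Ccne1 above Ccne2 at OB-EB in epiblast-like (96.3 and 79.02 CPM) and ExE-like cells (105 and 80.7), and Ccne2 above Ccne1 at MS-LS in VE-like cells (73.7 and 69.3), each with intervals that overlap. Within classes Ccne2 rose beyond its interval in 4 of 5 from MS-LS to OB-EB and fell in 5 of 5 from OB-EB to EHF, by ratios of -1.71 to -1.17. Ccne1 fell in 3 of 5 and then rose in 3 of 5. At EHF Ccne1 was 205 CPM in ExE-like cells, where Ccne2 was 24.7 CPM.

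Of the inhibitors, Cdkn1b made the largest fall of any member. Its product, p27, holds back Cdk2 complexes. Its level was 13.7 CPM at MS-LS, 39.1 at OB-EB and 4.51 at EHF (92 UMIs). The log2 ratio rose by 1.51 and then fell by 3.11 (-3.45 to -2.79). All 5 shared classes fell beyond their interval in the second step, with ratios of -3.70 to -2.65, and 4 of 5 rose in the first. No EHF class exceeded 5.75 CPM.

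Cdkn1a, whose product p21 is induced by p53, was low in the first 2 libraries, 7.74 CPM (139 UMIs) and 9.28 (113 UMIs), and 25.4 at EHF (517 UMIs). The log2 ratio from OB-EB to EHF was 1.45 (1.16 to 1.76). The EHF counts sat in few classes. Caudal epiblast-like cells read 90.7 CPM (186 UMIs), presomitic mesoderm-like cells 66.3 (89 UMIs) and VE-like cells 31.3 (70 UMIs). Epiblast-like cells at that stage had 1 UMI, 0.834 CPM.

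**Figure D3:**
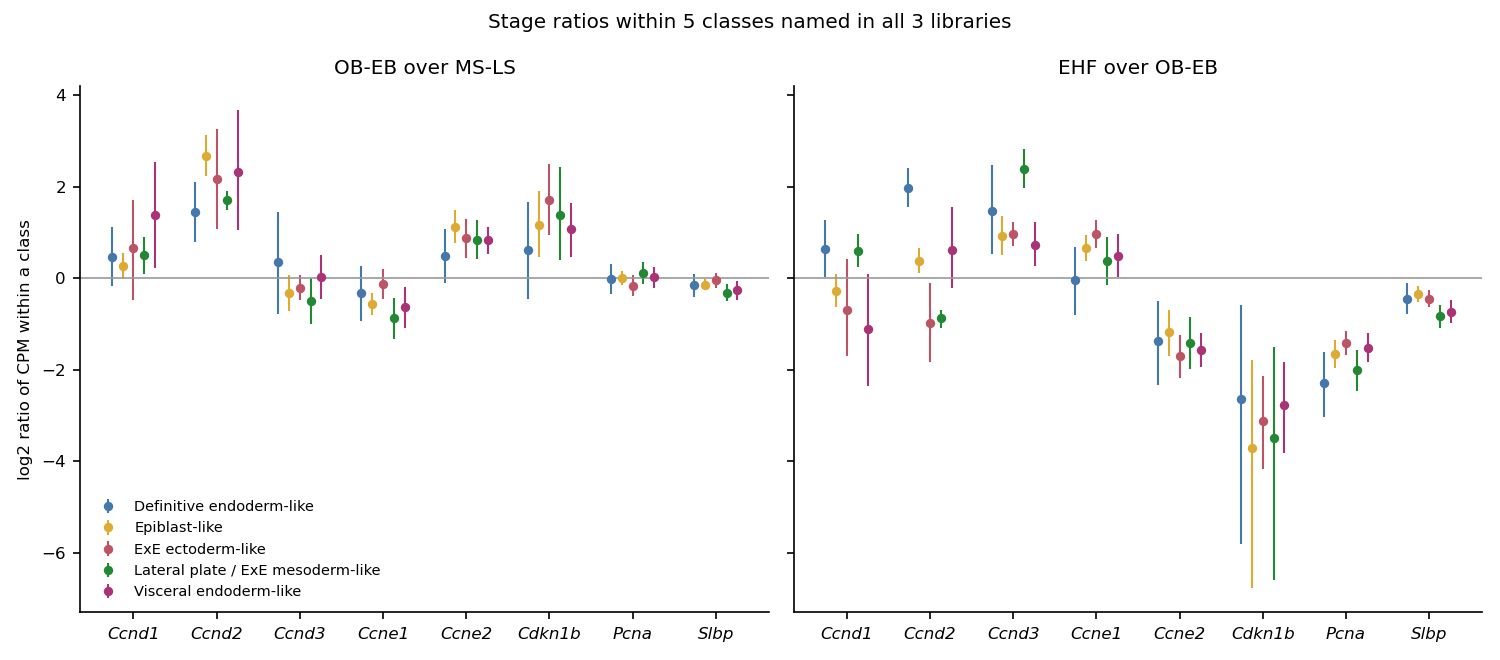
Log2 ratio of CPM (y axis) within each of the 5 shared classes, from MS-LS to OB-EB and from OB-EB to EHF, for the D and E cyclins, Cdkn1b, Pcna and Slbp, with 95% counting intervals. Ccnd2 reads higher in each class in the first step, on few UMIs in ExE-like and VE-like cells, and Ccne2, Cdkn1b, Pcna and Slbp fall in each class in the second.

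The promoters of the replication and mitosis genes are given next because genes of these groups are known targets of E2F and DREAM complexes, whose letters can be read in the sequence. Promoters are the RefSeq GRCm38.p6 windows from 250 bases before to 50 after the start of transcription, and 34 of the 42 members have one. Ccna2, Ccnd1, Ccnd2, Ccne2, Mcm4, Gins2, Aurkb and Tpx2 have none in the table. The letters of the cell cycle homology region (CHR, TTTGAA or TTCGAA on either strand) occur in 14 of 18 mitosis genes and in 3 of 12 replication genes, Mcm2, Mcm7 and Cdc45, beside 21.7% of all 27025 genes with a promoter. CCAAT boxes occur in 16 of 18 and 10 of 12, beside 41.1%. E2F letters (TTTGGCGC, TTTCCCGC, TTTGGCGG or TTTCCCGG) occur in Mcm3, Mcm5, Mcm6, Mcm7 and Cdc6 and in Birc5 of the mitosis genes, beside 3.79%. Of the mitosis genes with a promoter Ccnb1, Cenpe, Birc5 and Nusap1 lack the CHR letters. None of the G1 cyclins or inhibitors with a promoter has CHR or E2F letters, and Ccnd3 and Cdkn1b have a CCAAT box. A match is a description, not a site or a cause.

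The sequences below, each of 150 bases read along the gene's strand with motif letters in capitals, are of 4 mitosis genes with CHR and CCAAT letters and 2 replication genes with E2F letters. They were chosen after the motifs were seen. The genes are Ube2c (chr2:164769769-164769918, plus strand), Plk1 (chr7:122159335-122159484, plus), Cdc20 (chr4:118437294-118437443, minus), Ccnb2 (chr9:70421505-70421654, minus), Mcm5 (chr8:75109359-75109508, plus) and Mcm6 (chr1:128359666-128359815, minus).
Ube2c: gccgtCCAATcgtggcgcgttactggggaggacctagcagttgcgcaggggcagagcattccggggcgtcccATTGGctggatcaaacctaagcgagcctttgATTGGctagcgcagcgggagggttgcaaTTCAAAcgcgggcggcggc
Plk1: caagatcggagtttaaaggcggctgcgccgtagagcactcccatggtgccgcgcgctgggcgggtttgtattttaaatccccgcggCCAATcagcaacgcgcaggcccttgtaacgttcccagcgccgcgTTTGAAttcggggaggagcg
Cdc20: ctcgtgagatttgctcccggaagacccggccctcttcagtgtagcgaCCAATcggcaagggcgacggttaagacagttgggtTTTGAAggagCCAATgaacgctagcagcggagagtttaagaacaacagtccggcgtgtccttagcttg
Ccnb2: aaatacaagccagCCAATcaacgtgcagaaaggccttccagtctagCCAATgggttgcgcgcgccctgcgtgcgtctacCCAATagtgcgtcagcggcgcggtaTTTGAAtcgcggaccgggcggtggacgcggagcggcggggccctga
Mcm5: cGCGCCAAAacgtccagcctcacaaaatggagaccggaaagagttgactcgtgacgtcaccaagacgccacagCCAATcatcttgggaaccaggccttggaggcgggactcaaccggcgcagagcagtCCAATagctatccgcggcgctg
Mcm6: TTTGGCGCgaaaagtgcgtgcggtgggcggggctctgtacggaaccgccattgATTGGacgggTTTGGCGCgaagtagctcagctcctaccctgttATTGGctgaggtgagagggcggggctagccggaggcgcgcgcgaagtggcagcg

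The replication genes did not move as 1 group from OB-EB to EHF. Summed over all 14 they stayed nearly level, at 1933 CPM at MS-LS, 1921 at OB-EB and 1857 at EHF. Their median log2 ratio was -0.23 for the first step and 0.59 for the second, beside -0.088 and 0.37 for all genes. Mcm6 was called lower in the first step, 1 of 14, where 13.6% of all genes were. In the second 7 of 14 were higher, where 36.7% of all genes were, and Pcna was lower, where 11% were.

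Pcna, the sliding clamp that holds polymerases on DNA, made the largest change of the replication genes. It was 239 CPM at MS-LS, 238 at OB-EB and 83.3 at EHF, with a log2 ratio from OB-EB to EHF of -1.51 (-1.60 to -1.43). The fall was seen in all 5 shared classes, by -2.28 in DE-like to -1.41 in ExE-like cells. In DE-like cells Pcna went from 223 CPM at OB-EB to 45.7 at EHF. From MS-LS to OB-EB no class moved beyond its interval.

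Slbp and Rrm2 are the other abundant members of the group. Slbp binds the stem-loop of histone mRNAs and was 414, 401 and 285 CPM. Its second step was -0.49, inside the fold of 1.5, and negative in all 5 classes (-0.83 to -0.34). Rrm2, the small subunit of ribonucleotide reductase, was the most abundant replication gene of each whole library, with 418, 535 and 374 CPM. At MS-LS its interval (409 to 428) overlaps that of Slbp (405 to 424). The Rrm2 ratio from OB-EB to EHF was -0.52, and -1.22 to -0.28 within the 5 classes. Rrm1, the large subunit, went the other way, from 66.2 to 46.9 and 83.8 CPM, with 0.84 in the second step.

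The Mcm genes encode the replicative helicase, and all 6 are members. Mcm3 was 75.1, 62.4 and 119 CPM, and its second step, 0.93, was positive beyond the interval in all 5 classes. Mcm5 went from 84.2 to 73.0 and 138 CPM (0.92) and Mcm6 from 109 to 71.7 and 139 CPM (-0.61 and 0.95). Mcm6 fell beyond its interval in 4 of 5 classes in the first step and rose in 4 of 5 in the second. Mcm2, at 88.6, 79.2 and 114 CPM, rose less. Mcm4 and Mcm7 differed, since Mcm4 stood at 96.5, 96.8 and 108 CPM and Mcm7 at 114, 135 and 137, and neither passed the fold in any comparison.

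The remaining replication genes were lowest at OB-EB and highest at EHF. Gins2, of the helicase complex, was 85.7, 72.2 and 114 CPM and rose in the second step in all 5 classes (0.49 to 1.11). Cdc6, which loads the helicase, was 22.4, 16.01 and 32.1 CPM. Cdc45, which joins the active helicase, was 13.0, 9.77 and 17.9. Tyms, thymidylate synthase, went from 107 to 83.8 and 113 CPM and was not called.

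Summed as a group, the mitosis genes were lowest at OB-EB and highest at EHF. Their sum was 2477 CPM at MS-LS, 2230.0 at OB-EB and 2996 at EHF. The median log2 ratio was -0.29 for the first step and 0.58 for the second, against -0.088 and 0.37 for all genes. Mki67 alone was called in the first step, 1 of 21, where 13.6% of all genes were lower. In the second step 10 of 21 were higher, where 36.7% of all genes were, and none was lower, where 11% were.

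Among the cyclins of the group, Ccna2, which acts in S phase and G2, went from 144 to 109 and 193 CPM. Ccnb2, a mitotic cyclin, went from 83.9 to 57.6 and 118, with a second step of 1.04. Ccnb1 behaved otherwise, at 235, 258 and 295 CPM, and was not called in any comparison. Cdk1, the kinase they bind, was 157, 112 and 195 CPM, a second step of 0.80. Ccnb2 and Cdk1 fell beyond their intervals in 4 of 5 shared classes and then rose in 4 of 5.

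Ube2c and Cdc20 both read lowest at OB-EB and highest at EHF. Ube2c, which carries ubiquitin to the anaphase-promoting complex, went from 306 to 235 and 396 CPM. It fell in all 5 classes in the first step (-0.75 to -0.40) and rose in all 5 in the second (0.28 to 1.001). Cdc20, an activator of that complex, was 155, 119 and 173 CPM and passed the fold in no comparison. Plk1, a kinase of mitotic entry, was 47.6, 41.6 and 70.1 CPM, with a second step of 0.75.

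Of the chromosomal passenger genes, Birc5 was 326, 255 and 381 CPM and Aurkb 39.7, 26.6 and 51.5. Both were lowest at OB-EB. Birc5 fell beyond its interval in all 5 classes in the first step and rose in 4 of 5 in the second. Aurka, of the spindle poles, was 58.6, 54.5 and 81.0 CPM, and its partner Tpx2 58.3, 59.8 and 71.4. Mki67, of the surface of mitotic chromosomes, went from 57.3 to 35.4 and 58.6 CPM, -0.69 and 0.73.

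Motor and spindle genes included the largest rises of the group. Kif23, needed for cytokinesis, was 20.6, 15.5 and 36.5 CPM, a second step of 1.23. Cenpe, a kinetochore motor, was 31.8, 24.3 and 52.2 CPM, with 1.10. Hmmr, a spindle protein, was 25.9, 24.5 and 47.5 CPM, with 0.96. Kif11, the motor that parts the spindle poles, stayed inside the fold at 40.1, 32.8 and 40.4 CPM.

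A smaller set rose little or not at all at EHF. Top2a, which untangles DNA, was 163, 219 and 209 CPM, and Cenpf, of the kinetochore, 151, 194 and 144. Cenpf fell beyond its interval in 4 of 5 classes in the second step (-0.51 to -0.15 over the 5). Bub1, of the spindle checkpoint, was 52.6, 46.5 and 38.6 CPM and fell in 3 of 5. Nusap1, which binds spindle microtubules, was 68.3, 72.7 and 55.5. Cenpa, the histone of centromeres, rose little, at 254, 237 and 287 CPM. No member of this set passed the fold of 1.5 in any comparison.

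Phase was read from UMI sums, as a rule of counts and not a measured phase. Each cell was thinned at random to 2000 UMIs, and 231 MS-LS, 1055 OB-EB and 309 EHF cells with fewer were left out. A cell is G2/M-like with at least 3 UMIs of the mitosis genes and no fewer than of the replication genes, S-like with at least 3 of the replication genes and more of them than of mitosis genes, and otherwise neither. G2/M-like cells were 60.4% (58.7 to 62.0) at MS-LS, 56.4% (54.6 to 58.2) at OB-EB and 70.1% (68.5 to 71.7) at EHF. S-like cells were 33.7%, 36.6% and 26.4%, and neither 5.88%, 6.98% and 3.45%. By this rule the mitosis genes led or tied in most cells of each library, and most often at EHF. Without thinning the G2/M-like shares were 63.8%, 55.2% and 73.4%.

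The EHF shift depends on which genes are counted. Summed over the member sets, the log2 ratio of mitosis over replication UMIs, called the balance here, was 0.36 (0.34 to 0.38) at MS-LS, 0.22 (0.19 to 0.24) at OB-EB and 0.69 (0.67 to 0.71) at EHF. With 27 other replication genes and 29 other mitosis genes in place of the members it was 0.28, -0.024 and -0.072. With those genes the G2/M-like share was 59.0%, 50.3% and 47.0%, so the order of EHF and OB-EB turned round. Without Pcna, Rrm2 and Slbp, an alternative chosen after the data were seen, the member balance was 1.52, 1.58 and 1.43. The G2/M-like share without them was 76.5%, 73.4% and 81.1%, so EHF was still the highest by the share and the lowest by the balance. By the phase scores of scanpy the G2/M shares were 39.4%, 30.2% and 30.5%. No cycling is read from the phase calls alone.

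Between classes the order of the balance also depends in part on the genes. With the members VE-like cells had the highest balance of the shared classes at each stage, 0.72, 0.79 and 1.13, followed by DE-like cells at 0.46, 0.42 and 0.91. At MS-LS DE-like cells stood above VE-like cells with the other genes, 0.60 against 0.45, and without Pcna, Rrm2 and Slbp, 1.74 against 1.63. Of the 677 MS-LS VE-like cells, 270 were of a cluster with nearly equal marker scores for visceral (2.07) and definitive endoderm (2.0). At lower clustering resolution the MS-LS VE-like class held 434 cells and the DE-like class 402. With the members epiblast-like cells stood at 0.38, 0.13 and 0.61, ExE-like cells at 0.37, 0.057 and 0.78, and LPM-like cells at 0.25, 0.28 and 0.82. The G2/M-like share gave another order. At MS-LS it was 59.1% in VE-like cells, under the 65.9% of epiblast-like, 65.8% of DE-like and 65.1% of ExE-like cells. At EHF the 61.1% of DE-like cells was the lowest value of 13 classes. Its interval, 48.9% to 72.4%, overlaps that of presomitic mesoderm-like cells (63.2%, 56.7% to 69.3%). VE-like cells also had the most cells that were neither, 13.3%, 21.9% and 9.48%. In OB-EB ExE-like cells the G2/M-like share was 47.8%, the lowest value of any class, with an interval that overlaps that of epiblast-like cells, and in EHF ExE-like cells 77.3%. Free RNA enters these sums too, and its share in them was not tested.

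**Figure D4:**
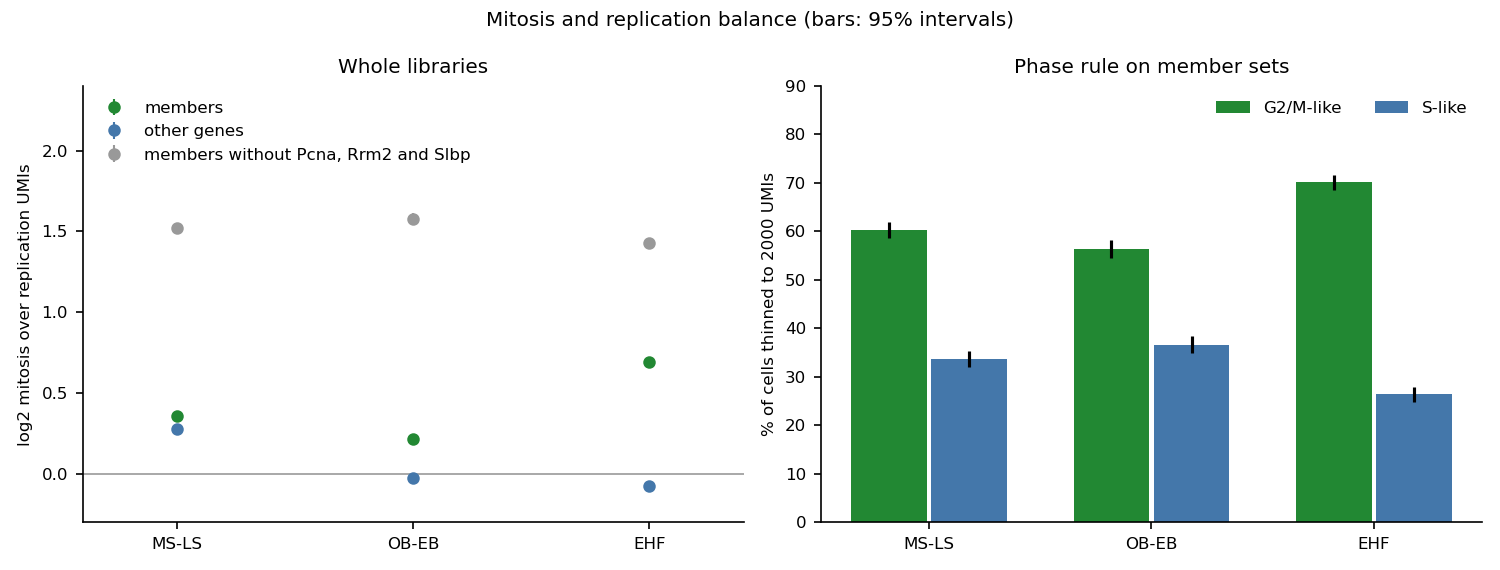
Log2 ratio of mitosis over replication UMIs by stage (left), for the members, for the other genes and for the members without Pcna, Rrm2 and Slbp, and percent of thinned cells that are G2/M-like or S-like (right), with 95% counting intervals. EHF stands highest with all members and lowest with the other 2 choices of genes.

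Members were then read against cell cycle genes outside the list. Cells led by other mitosis genes, with at least 2 UMIs of them after thinning and no fewer than of other replication genes, were 2135 at MS-LS, 1626 at OB-EB and 1592 at EHF. Those led by other replication genes were 1218, 1262 and 1545. Between these bins the mitosis members were higher beyond their interval in the first bin for 15, 13 and 19 of 21, with medians of 0.26, 0.30 and 0.31. The replication members were lower for 12, 6 and 13 of 14, with medians of -0.24, -0.17 and -0.24. No mitosis member was lower and no replication member higher beyond the interval. No share over all genes is given for these bins, so the counts describe the members and are not set against a background.

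A wider contrast, chosen after the data were seen, sets cells with at least 6 UMIs of other mitosis genes against those with at most 1. The mitosis members' medians were then 0.66, 0.56 and 0.66, and replication members were lower for 3, 2 and 5 of 14. Here too no share over all genes is given. Cells of the rich bin also held more UMIs before thinning than those of the poor bin. The medians were 4842 and 3684 at MS-LS, 3145 and 3024 at OB-EB, and 6410.5 and 5181 at EHF. Ube2c was 379.9 CPM in the rich bin and 214 in the poor bin at MS-LS, 301 and 185 at OB-EB, and 530.4 and 275 at EHF. Plk1 had log2 ratios of 1.04, 0.75 and 1.01, and Aurka 1.06, 0.86 and 0.84. Ccnb1 had 0.87, 0.54 and 0.94. These genes were richer where other mitosis genes were, in each library. Birc5 and Ccnb2 hardly moved, with 0.14, 0.025 and 0.17 for Birc5 and 0.083, 0.30 and 0.039 for Ccnb2. Ccne2 was lower in the rich bin at MS-LS (-0.47) and EHF (-0.73), and at OB-EB its ratio of -0.20 had an interval that includes 0. Across thinned cells the sums of mitosis members and of other mitosis genes had correlations of 0.251, 0.227 and 0.278, which are weak. A thinned cell holds a median of 4, 4 and 5 UMIs of the mitosis members.

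**Figure D5:**
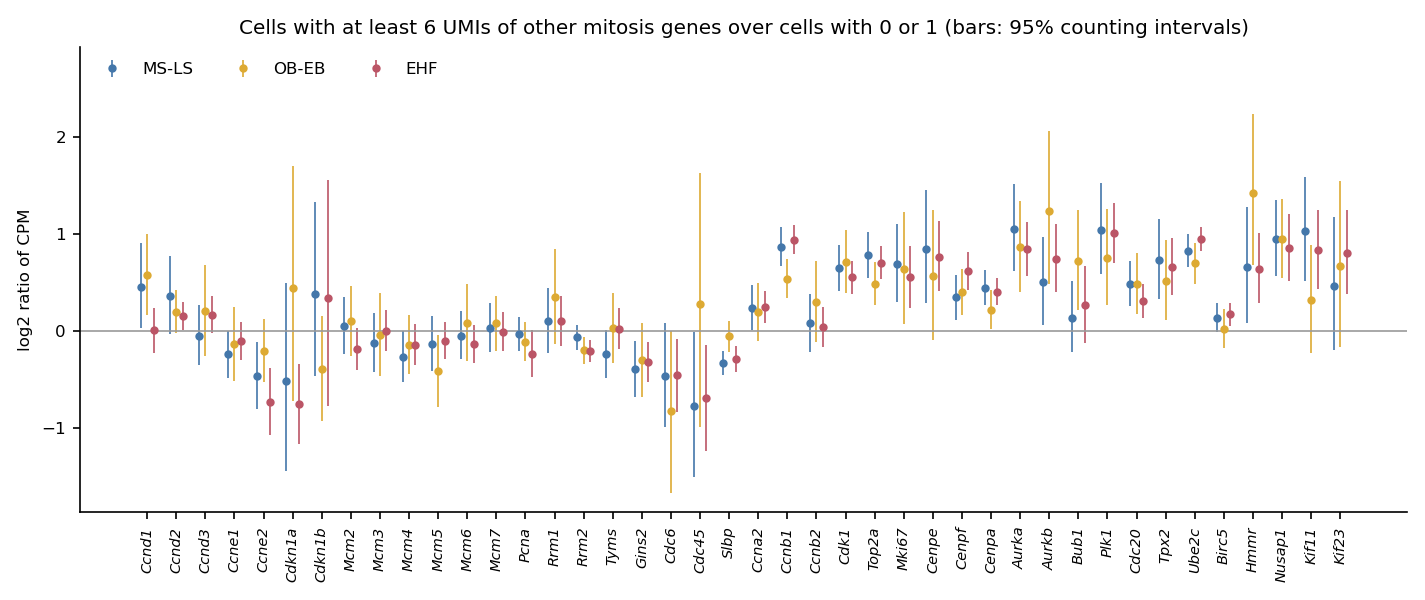
Log2 ratio of CPM (y axis) of each member (x axis) in cells rich in other mitosis genes (at least 6 UMIs) over cells poor in them (at most 1), by library, with 95% counting intervals. Most mitosis members lie above 0 and replication members lie near or under it.

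Genes of the same pathways outside the list were set beside the members, and from each list the pair with the largest ratio in each direction is named. From MS-LS to OB-EB, Cdk6, a partner of the D cyclins, rose from 7.51 to 34.0 CPM (2.18), and Ccng2 by 0.81. Among the inhibitors Cdkn2a went by -0.77 and Cdkn1c by -0.51. Of the replication genes Wdr76 rose from 25.2 to 53.8 CPM (1.10) and Dtl from 67.2 to 139 (1.05), while Dscc1 (-0.79) and Exo1 (-0.55) fell. The rises of Wdr76 and Dtl, and the fall of Dscc1, were larger than any of the replication members in this step. Of the mitosis genes Cks2 fell from 694 to 417 CPM (-0.74) and Tacc3 by 0.57, while Cdca2 (0.70) and G2e3 (0.67) rose. The E2F, RB and DREAM genes moved little, from Mybl2 (-0.46) and E2f3 (-0.25) to E2f7 (0.47) and E2f5 (0.43). The p53 targets ran from Btg2 (-0.41) and Mdm2 (-0.26) to Zmat3 (0.54) and Pmaip1 (0.59).

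From OB-EB to EHF the p53 target Pmaip1 fell from 169 to 21.4 CPM (-2.98) while Phlda3 rose from 14.1 to 37.7 (1.42), as Cdkn1a did. Trp53inp1 (-0.56) and Mdm2 (0.89) were the others named. Cdkn1c rose from 27.8 to 85.4 CPM (1.62), against the fall of Cdkn1b, and Cdkn2a by 1.26, while Ccng2 (-0.74) and Cdk6 (-0.71) fell. The inhibitors of the kinases did not move together. Mybl2, of the complex that drives late cell cycle genes, rose from 23.2 to 63.2 CPM (1.44), and E2f6 by 1.10, while Lin9 (-0.66) and Tfdp2 (-0.50) fell. Wdr76 fell from 53.8 to 15.7 CPM (-1.78) and Pola1 by 0.87, while Dscc1 (1.04) and Prim1 (1.03) rose. G2e3 (-1.35) and Cenpw (-0.94) fell, and Ccnf (1.28) and Ckap2l (1.23) rose.

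From MS-LS to EHF the named mitosis genes were Cenpw (-1.02), G2e3 (-0.69), Cdc25c (1.31) and Ckap2l (0.84), and the replication genes Wdr76 (-0.68), Pola1 (-0.67), Clspn (1.11) and Chaf1b (0.73). Cdk6 (1.47) and Cdkn1c (1.10) rose, with Ccng2 (0.066) and Cdk2 (0.20) at the other end. E2f6 (1.29) and Mybl2 (0.98) rose, and Lin9 (-0.59) and Lin54 (-0.23) fell. Pmaip1 (-2.40) and Trp53inp1 (-0.67) fell, and Phlda3 (1.497) and Mdm2 (0.63) rose.

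For all genes the medians were -0.088 from MS-LS to OB-EB, 0.37 from OB-EB to EHF and 0.26 from MS-LS to EHF. Over the 3 comparisons in turn they were 0.0041, 0.22 and 0.31 for the 27 other replication genes, and -0.17, 0.33 and 0.30 for the 29 other mitosis genes that enter. They were -0.096, 0.54 and 0.54 for kinases and inhibitors, 0.087, 0.31 and 0.26 for E2F, RB and DREAM genes, and 0.074, -0.076 and 0.16 for p53 targets. The median of the p53 targets thus lay under that of all genes from OB-EB to EHF, and that of the kinases and inhibitors above it. The kinase and inhibitor list also holds the cyclins Ccna1, Ccng1 and Ccng2, and the list of p53 targets holds Trp53 itself. Of the 8 genes of the kinase and inhibitor list that enter, 3 were higher and 2 lower, with Ccng2 among the lower. Of the 11 genes of the p53 list, 2 were higher and 1 lower. Of all genes, 36.7% were higher and 11% lower. The differences between the lists were not tested. From OB-EB to EHF the member medians, 0.59 for replication and 0.58 for mitosis, lay above those of the other genes of the same processes.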

How the data were processed

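Single-cell 3′ RNA was measured in 1 library of pooled, tamoxifen-treated embryos per stage. The authors mapped reads to GRCm38 with Cell Ranger 3.0.2, filtered cells with Seurat 3 in R 3.6.1 and deposited raw UMI counts. The counts cover 16639 genes at MS-LS, 16341 at OB-EB and 18640 at EHF. The lowest total of a cell is 1001, 1003 and 1004 UMIs. Every deposited cell was kept here. UMIs were summed over a library or class and divided by all its UMIs (CPM). Intervals at 95% are exact, from the Poisson distribution for levels, the conditional binomial for ratios and the binomial for shares. They cover counting error only, and with 1 library per stage no p-value was computed.

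Clusters were found in each library with Seurat 5.3.0 under R 4.3.3 (log-normalized to 10000, 2000 variable genes without 25, 18 and 19 cell cycle genes, 50 components, resolution 2, 2 and 4.5), which gave 16, 15 and 30 clusters. A cluster was named after 1 of 25 cell types when at least 3 of its markers were detected in 20% of cells and 2-fold above other cells, and no other type had more markers among the 10 leading genes. Doublet scores came from Scrublet in scanpy 1.11.5. Cells were called female with Xist and none of 4 Y-linked genes detected, and male the other way round. Called female cells were 869 of MS-LS, 1120 of OB-EB and 1870 of EHF, and male cells 812, 653 and 312. Other values were computed with Python 3.11.15, numpy 2.4.6, scipy 1.17.1 and pandas 2.3.3. The counting and ratio code was checked on simulated data with known answers.

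The members, the other gene lists and the markers were chosen with earlier results of these data known. All 42 members may be named. From each list outside the members the 2 genes with the largest ratio in each direction are named, among those with at least 100 UMIs. Alternatives covered the cells kept, sex, doublets, totals, class weights, fold, thinning, phase rule, gene sets and clustering. Gene positions are those of GRCm38, and promoters those of RefSeq GRCm38.p6.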

Additional observations from a re-analysis of the deposited data

Results flagged for a closer look

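Within the 5 shared classes, 14 ratios between stages went up beyond the counting interval in at least 1 class and down beyond it in another. They were drawn from all 42 members in 3 comparisons. No share of all genes that part in this way is given, so the count is not set against a background. Each gap below is the difference between the log2 ratios of 2 such classes. The differences were not tested, since each stage has 1 library.

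From OB-EB to EHF, Ccnd2 had log2 ratios of 1.98 in DE-like and -0.98 in ExE-like cells, a gap of 2.96. The ExE-like ratio rests on 19 and 36 UMIs, at 9.61% and 4.28% of the library level. Mesp1, a gene of early mesoderm, read there at 12.04% and 5.07%, on 13 and 4 UMIs. T, a gene of the streak, read at 31.2% and 13.2%. Without the highest doublet scores the OB-EB level of Ccnd2 was 11.8 CPM in place of 20.4. Ccnb1 had 0.50 in ExE-like and -0.64 in LPM-like cells, a gap of 1.13. Cdkn1a had 1.78 (0.85 to 2.84) in VE-like and -3.53 (-8.89 to -0.91) in epiblast-like cells, a gap of 5.31, where the EHF epiblast-like cells hold 1 UMI.

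The other gaps are from MS-LS to EHF. Those with LPM-like cells at the lower end were Ccne1, with 0.84 in ExE-like and -0.50 in LPM-like cells (1.34), and Mcm2, with 0.84 in DE-like and -0.57 in LPM-like cells (1.41). Tyms had 0.28 in VE-like and -0.58 in LPM-like cells (0.86). Cdc6 had 0.68 in epiblast-like and -0.997 in LPM-like cells (1.67). Ccnb1 had 0.35 in ExE-like and -0.34 in LPM-like cells (0.70), and Ccnb2 0.81 in epiblast-like and -0.54 in LPM-like cells (1.34). Cdc20 had 0.33 in VE-like and -0.72 in LPM-like cells (1.06). The MS-LS LPM-like cluster also had the endothelial markers Kdr and Etv2 among its leading genes, and a change in the make-up of the class was not tested.

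Rrm2 had 0.22 in epiblast-like and -1.11 in DE-like cells, a gap of 1.34. VE-like cells were at the lower end for Top2a, with 0.47 in DE-like and -0.40 in VE-like cells (0.87), for Cenpf, with 0.51 and -0.39 (0.90), and for Kif23, with 1.74 and -0.62 (2.36).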

How the results depend on the processing

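The results were recomputed with 1 choice changed at a time. Of 78 values of the phase shares 46 moved beyond the 95% interval of the reported value, and of 134 class balances 53 moved and 3 reversed. Of 24 library balances 12 moved and 2 reversed. Of 72 D cyclin ratios 14 moved and 1 reversed, and of 240 class levels of the D cyclins 41 moved. Of 66 counts of members 11 moved beyond 1.5 times the reported count, and of 90 counts of classes for the D cyclins 18 did. The values that moved or reversed follow, by setting. The balance is the log2 ratio of mitosis over replication UMIs. The cause was not tested for any of them, and a class holds fewer cells where cells were left out. No paired analysis was possible because each stage is a separate library of pooled embryos. Cells within the mitochondrial limit, totals without mitochondrial and ribosomal protein genes, means of the CPM of each cell and a minimum of 30 UMIs moved none of the values they were tried on.

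Log2 ratios with the named classes weighted equally moved from 2.11 to 1.77 for Ccnd2 in OB-EB over MS-LS, from -0.46 to -0.16 for Ccnd3 in OB-EB over MS-LS, from 0.19 to -0.00022 for Ccnd2 in EHF over OB-EB, from 1.63 to 1.35 for Ccnd3 in EHF over OB-EB and from 2.29 to 1.78 for Ccnd2 in EHF over MS-LS. Counts of members past the fold with the named classes weighted equally went from 2 to 4 lower in EHF over MS-LS.

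Counts of members past the fold at a fold of 2 went from 2 to 0 lower in OB-EB over MS-LS, from 20 to 6 higher in EHF over OB-EB and from 9 to 3 higher in EHF over MS-LS.

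Counts of members past the fold when 1.5-fold was required the same way in each of the 5 shared classes, a count chosen after the data were seen, went from 3 to 1 higher in OB-EB over MS-LS, from 2 to 0 lower in OB-EB over MS-LS, from 20 to 1 higher in EHF over OB-EB and from 9 to 1 higher in EHF over MS-LS.

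Log2 ratios among female cells moved from 2.11 to 2.397 for Ccnd2 in OB-EB over MS-LS, from 0.43 to 0.61 for Ccnd1 in EHF over OB-EB, from 0.19 to 0.29 for Ccnd2 in EHF over OB-EB, from 1.63 to 1.495 for Ccnd3 in EHF over OB-EB and from 2.29 to 2.68 for Ccnd2 in EHF over MS-LS. Counts of members past the fold among female cells went from 2 to 4 lower in OB-EB over MS-LS. Phase shares among female cells went from 60.4 to 63.8% G2/M-like at MS-LS, from 33.7 to 29.8% S-like at MS-LS, from 70.1 to 73.1% G2/M-like at EHF and from 26.4 to 23.95% S-like at EHF. MS-LS balances among female cells moved from 0.36 to 0.40 in all cells, from 0.25 to 0.60 in LPM-like cells and from 0.72 to 0.65 in VE-like cells. OB-EB balances among female cells moved from 0.22 to 0.19 in all cells, from 0.13 to 0.022 in epiblast-like cells and from 0.057 to 0.27 in ExE-like cells. EHF balances among female cells moved from 0.69 to 0.76 in all cells, from 0.61 to 0.69 in epiblast-like cells and from 0.82 to 0.999 in LPM-like cells. MS-LS levels among female cells moved from 18.8 to 12.9 CPM in epiblast-like cells, from 4.57 to 2.26 CPM in ExE-like cells, from 2.65 to 0.996 CPM in VE-like cells and from 91.3 to 75.7 CPM in streak-like cells for Ccnd2, from 82.7 to 108 CPM in LPM-like cells, from 4.42 to 1.99 CPM in VE-like cells and from 64.0 to 43.9 CPM in streak-like cells for Ccnd1 and from 77.5 to 62.1 CPM in LPM-like cells for Ccnd3. OB-EB levels among female cells moved from 120.3 to 103 CPM in epiblast-like cells for Ccnd2, from 117 to 93.1 CPM in LPM-like cells for Ccnd1 and from 55.2 to 37.2 CPM in LPM-like cells for Ccnd3. Counts of shared classes beyond the counting interval among female cells went from 2 to 0 higher for Ccnd1 in OB-EB over MS-LS, from 5 to 3 higher for Ccnd2 in OB-EB over MS-LS, from 2 to 1 higher for Ccnd1 in EHF over OB-EB, from 5 to 3 higher for Ccnd3 in EHF over OB-EB and from 5 to 3 higher for Ccnd3 in EHF over MS-LS.

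Log2 ratios among male cells moved from 0.43 to 0.18 for Ccnd1 in EHF over OB-EB, from 0.19 to 0.073 for Ccnd2 in EHF over OB-EB, from 1.63 to 1.85 for Ccnd3 in EHF over OB-EB, from 0.88 to 0.61 for Ccnd1 in EHF over MS-LS and from 1.17 to 1.37 for Ccnd3 in EHF over MS-LS. Counts of members past the fold among male cells went from 2 to 5 lower in OB-EB over MS-LS and from 3 to 5 lower in EHF over OB-EB. Phase shares among male cells went from 60.4 to 62.1% G2/M-like at MS-LS, from 56.4 to 58.4% G2/M-like at OB-EB and from 70.1 to 66.3% G2/M-like at EHF. MS-LS balances among male cells moved from 0.37 to 0.43 in ExE-like cells and from 0.25 to 0.10 in LPM-like cells. OB-EB balances among male cells moved from 0.22 to 0.33 in all cells, from 0.42 to 0.84 in DE-like cells, from 0.13 to 0.28 in epiblast-like cells, from 0.28 to 0.19 in LPM-like cells and from 0.79 to 0.998 in VE-like cells. EHF balances among male cells moved from 0.61 to 0.32 in epiblast-like cells, from 0.78 to 0.96 in ExE-like cells, from 0.82 to 0.55 in LPM-like cells and from 1.13 to 0.98 in VE-like cells. MS-LS levels among male cells moved from 36.3 to 59.6 CPM in DE-like cells, from 18.8 to 32.9 CPM in epiblast-like cells and from 219 to 260.4 CPM in LPM-like cells for Ccnd2, from 18.7 to 9.41 CPM in DE-like cells, from 77.5 to 57.5 CPM in LPM-like cells and from 47.2 to 60.7 CPM in streak-like cells for Ccnd3 and from 76.5 to 93.2 CPM in epiblast-like cells for Ccnd1. OB-EB levels among male cells moved from 98.6 to 172 CPM in DE-like cells and from 120.3 to 157 CPM in epiblast-like cells for Ccnd2 and from 153 to 110.2 CPM in ExE-like cells and from 42.8 to 27.5 CPM in streak-like cells for Ccnd3. EHF levels among male cells moved from 10.4 to 17.8 CPM in ExE-like cells and from 20.6 to 6.58 CPM in VE-like cells for Ccnd2 and from 299 to 231 CPM in ExE-like cells and from 69.3 to 82.3 CPM in VE-like cells for Ccnd3. Counts of shared classes beyond the counting interval among male cells went from 2 to 0 higher for Ccnd1 in OB-EB over MS-LS, from 2 to 0 higher for Ccnd1 in EHF over OB-EB, from 2 to 1 higher for Ccnd2 in EHF over OB-EB, from 2 to 1 lower for Ccnd2 in EHF over OB-EB, from 5 to 2 higher for Ccnd3 in EHF over OB-EB, from 2 to 0 higher for Ccnd1 in EHF over MS-LS and from 5 to 2 higher for Ccnd2 in EHF over MS-LS.

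OB-EB balances in cells with at least 2000 UMIs moved from 0.22 to 0.26 in all cells.

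MS-LS levels without the highest doublet scores moved from 4.57 to 1.46 CPM in ExE-like cells and from 2.65 to 0.924 CPM in VE-like cells for Ccnd2. OB-EB levels without the highest doublet scores moved from 20.4 to 11.8 CPM in ExE-like cells for Ccnd2. EHF levels without the highest doublet scores moved from 20.6 to 12.8 CPM in VE-like cells for Ccnd2. Counts of shared classes beyond the counting interval without the highest doublet scores went from 2 to 1 higher for Ccnd1 in EHF over OB-EB and from 2 to 1 lower for Ccnd2 in EHF over OB-EB.

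MS-LS levels at lower clustering resolution moved from 49.2 to 29.2 CPM in DE-like cells and from 4.42 to 1.65 CPM in VE-like cells for Ccnd1, from 36.3 to 19.3 CPM in DE-like cells for Ccnd2 and from 18.7 to 30.9 CPM in DE-like cells for Ccnd3. OB-EB levels at lower clustering resolution moved from 120.3 to 180.3 CPM in epiblast-like cells for Ccnd2. Counts of shared classes beyond the counting interval at lower clustering resolution went from 2 to 1 higher for Ccnd1 in EHF over OB-EB and from 2 to 1 higher for Ccnd2 in EHF over OB-EB.

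MS-LS levels with cycle genes allowed into clustering moved from 49.2 to 28.8 CPM in DE-like cells and from 4.42 to 1.65 CPM in VE-like cells for Ccnd1, from 36.3 to 18.3 CPM in DE-like cells for Ccnd2 and from 18.7 to 31.6 CPM in DE-like cells for Ccnd3. Counts of shared classes beyond the counting interval with cycle genes allowed into clustering went from 2 to 1 higher for Ccnd1 in EHF over OB-EB and from 2 to 1 higher for Ccnd1 in EHF over MS-LS.

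OB-EB levels in the study's streak cells moved from 93.9 to 65.0 CPM in streak-like cells for Ccnd1 and from 326 to 278 CPM in streak-like cells for Ccnd2.

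MS-LS balances with the other replication and mitosis genes moved from 0.36 to 0.28 in all cells, from 0.46 to 0.60 in DE-like cells, from 0.38 to 0.23 in epiblast-like cells, from 0.37 to 0.24 in ExE-like cells and from 0.72 to 0.45 in VE-like cells. Phase shares with the other replication and mitosis genes went from 56.4 to 50.3% G2/M-like at OB-EB, from 36.6 to 41.0% S-like at OB-EB, from 70.1 to 47.0% G2/M-like at EHF and from 26.4 to 46.8% S-like at EHF. OB-EB balances with the other replication and mitosis genes moved from 0.22 to -0.024 in all cells, from 0.42 to 0.15 in DE-like cells, from 0.13 to -0.21 in epiblast-like cells, from 0.057 to -0.18 in ExE-like cells, from 0.28 to 0.12 in LPM-like cells and from 0.79 to 0.18 in VE-like cells. EHF balances with the other replication and mitosis genes moved from 0.69 to -0.072 in all cells, from 0.91 to 0.051 in DE-like cells, from 0.61 to -0.26 in epiblast-like cells, from 0.78 to -0.11 in ExE-like cells, from 0.82 to 0.029 in LPM-like cells and from 1.13 to 0.26 in VE-like cells. Shared classes of EHF with mitosis above replication UMIs beyond the interval with the other replication and mitosis genes went from 5 to 1.

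MS-LS balances without the most abundant gene of each set moved from 0.36 to 0.51 in all cells, from 0.46 to 0.66 in DE-like cells, from 0.38 to 0.51 in epiblast-like cells, from 0.37 to 0.60 in ExE-like cells and from 0.25 to 0.37 in LPM-like cells. OB-EB balances without the most abundant gene of each set moved from 0.22 to 0.51 in all cells, from 0.42 to 0.74 in DE-like cells, from 0.13 to 0.35 in epiblast-like cells, from 0.057 to 0.52 in ExE-like cells, from 0.28 to 0.57 in LPM-like cells and from 0.79 to 0.89 in VE-like cells. EHF balances without the most abundant gene of each set moved from 0.69 to 0.81 in all cells, from 0.61 to 0.74 in epiblast-like cells and from 0.78 to 0.93 in ExE-like cells.

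Phase shares without Pcna, Rrm2 and Slbp went from 60.4 to 76.5% G2/M-like at MS-LS, from 33.7 to 8.37% S-like at MS-LS, from 56.4 to 73.4% G2/M-like at OB-EB, from 36.6 to 6.87% S-like at OB-EB, from 70.1 to 81.1% G2/M-like at EHF and from 26.4 to 10.6% S-like at EHF. MS-LS balances without Pcna, Rrm2 and Slbp moved from 0.36 to 1.52 in all cells, from 0.46 to 1.74 in DE-like cells, from 0.38 to 1.52 in epiblast-like cells, from 0.37 to 1.60 in ExE-like cells, from 0.25 to 1.41 in LPM-like cells and from 0.72 to 1.63 in VE-like cells. OB-EB balances without Pcna, Rrm2 and Slbp moved from 0.22 to 1.58 in all cells, from 0.42 to 1.84 in DE-like cells, from 0.13 to 1.45 in epiblast-like cells, from 0.057 to 1.44 in ExE-like cells, from 0.28 to 1.66 in LPM-like cells and from 0.79 to 1.90 in VE-like cells. EHF balances without Pcna, Rrm2 and Slbp moved from 0.69 to 1.43 in all cells, from 0.91 to 1.51 in DE-like cells, from 0.61 to 1.39 in epiblast-like cells, from 0.78 to 1.504 in ExE-like cells, from 0.82 to 1.52 in LPM-like cells and from 1.13 to 1.65 in VE-like cells.

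Phase shares thinned to 1000 UMIs went from 60.4 to 38.3% G2/M-like at MS-LS, from 33.7 to 21.5% S-like at MS-LS, from 56.4 to 33.3% G2/M-like at OB-EB, from 36.6 to 23.3% S-like at OB-EB, from 70.1 to 49.0% G2/M-like at EHF and from 26.4 to 18.1% S-like at EHF.

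Phase shares thinned to 3500 UMIs went from 60.4 to 69.0% G2/M-like at MS-LS, from 33.7 to 30.6% S-like at MS-LS, from 56.4 to 66.0% G2/M-like at OB-EB, from 36.6 to 33.9% S-like at OB-EB and from 70.1 to 73.9% G2/M-like at EHF.

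Phase shares without thinning went from 60.4 to 63.8% G2/M-like at MS-LS, from 70.1 to 73.4% G2/M-like at EHF and from 26.4 to 24.8% S-like at EHF.

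Phase shares at 2 UMIs of the leading set went from 60.4 to 63.4% G2/M-like at MS-LS, from 33.7 to 35.4% S-like at MS-LS, from 56.4 to 59.8% G2/M-like at OB-EB, from 36.6 to 38.6% S-like at OB-EB and from 70.1 to 72.0% G2/M-like at EHF.

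Phase shares at 5 UMIs of the leading set went from 60.4 to 44.4% G2/M-like at MS-LS, from 33.7 to 23.0% S-like at MS-LS, from 56.4 to 39.3% G2/M-like at OB-EB, from 36.6 to 25.3% S-like at OB-EB, from 70.1 to 57.0% G2/M-like at EHF and from 26.4 to 19.3% S-like at EHF.

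Phase shares from scanpy's scores went from 60.4 to 39.4% G2/M-like at MS-LS, from 56.4 to 30.2% G2/M-like at OB-EB, from 70.1 to 30.5% G2/M-like at EHF and from 26.4 to 37.4% S-like at EHF.

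Replication members lower in cells rich in other mitosis genes between the bins of at least 6 and at most 1 UMIs, chosen after the data were seen, went from 12 to 3 in MS-LS, from 6 to 2 in OB-EB and from 13 to 5 in EHF.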
